A study of Homo sapiens with 2 samples.

Results

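Alkaline phosphatases are zinc enzymes that remove phosphate groups from nucleotides, pyrophosphate and pyridoxal phosphate outside the cell. The human genome has 4 genes for them, and all 4 were examined here in human corneal epithelial cells (HCECs) that had received the microRNA miR-184. *ALPP* encodes the placental enzyme, *ALPG* (formerly *ALPPL2*) the germ cell enzyme, *ALPI* the intestinal enzyme and *ALPL* the tissue-nonspecific enzyme of bone, liver and kidney. The members were taken by symbol, which gave 4 of 22368 named genes on the array and 4 of 65854 features, 1 feature for each gene. The family was chosen by its log2 differences on these 2 arrays, since *ALPP* and *ALPG* were known to be among the largest falls, so the values are a description and support nothing further.

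HCECs, a corneal epithelial line immortalized with SV40, received either a miR-184 mimic or a negative control (NC), each at 50 nM and delivered with Lipofectamine RNAiMAX, and total RNA was taken at 48 h. The mimic is a synthetic RNA that supplies mature miR-184. Each condition had 1 array, so no value has a replicate error, no test was possible, and an effect of miR-184 cannot be told apart from a difference between the cultures. Both conditions came from the same immortalized line, in medium with serum, insulin and EGF. The simple epithelial keratin *KRT18* gave a strong signal (16.83 in miR-184 cells and 16.54 in NC cells, log2 signal). Among keratins of basal epithelium *KRT5* was at 13.63 in miR-184 cells and 12.75 in NC cells, whereas its partner *KRT14* (3.75 and 3.56) and *KRT15* (3.89 and 3.94) were below the median of all genes. The defining corneal markers were near the low end, with *KRT12* at 3.44 in miR-184 cells and 3.55 in NC cells, *KRT3* at 3.82 and 3.81, and *PAX6* at 3.54 and 3.48.

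Each of these phosphatases is held on the outer face of the plasma membrane by a glycosylphosphatidylinositol (GPI) anchor. *ALPL* is the widely expressed member, known for the hydrolysis of pyrophosphate during mineralization of bone, while the other 3 are found in normal tissue mainly in placenta, germ cells and gut and lie side by side on chromosome 2. Placental and germ cell alkaline phosphatase are also made by some tumors and cultured epithelial lines. Their transcripts are closely similar, and array probes for one can detect the other. The transcript sequences were not compared here.

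The sequences shown are those of the microRNA and of the promoters of the chromosome 2 genes. The promoters are given because the features of *ALPP* and *ALPG* were both lower and *ALPI* lies beside them. Promoter activity was not tested. The mature miR-184 (chr15:79209840-79209861, plus strand, GRCh38.p14, RefSeq) is written with its seed, bases 2 to 8, in capitals. The 3 promoter windows hold 250 bases before and 50 bases from the gene start in RefSeq (GRCh38.p14, all plus strand), with the motif TTTAAA in capitals. They lie at chr2:232378501-232378800 for *ALPP*, chr2:232406594-232406893 for *ALPG* and chr2:232455903-232456202 for *ALPI*.
hsa-miR-184: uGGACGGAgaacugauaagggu
ALPP promoter: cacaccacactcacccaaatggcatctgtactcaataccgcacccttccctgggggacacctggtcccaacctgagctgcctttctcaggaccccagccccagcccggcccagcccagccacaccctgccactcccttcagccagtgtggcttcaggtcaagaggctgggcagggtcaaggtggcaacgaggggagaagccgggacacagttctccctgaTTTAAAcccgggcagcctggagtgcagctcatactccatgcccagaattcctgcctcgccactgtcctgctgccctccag
ALPG promoter: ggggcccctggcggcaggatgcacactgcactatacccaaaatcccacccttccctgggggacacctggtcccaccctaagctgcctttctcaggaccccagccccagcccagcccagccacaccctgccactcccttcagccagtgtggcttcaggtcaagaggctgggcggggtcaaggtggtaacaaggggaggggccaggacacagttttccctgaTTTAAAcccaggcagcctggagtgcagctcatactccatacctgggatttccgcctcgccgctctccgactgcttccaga
ALPI promoter: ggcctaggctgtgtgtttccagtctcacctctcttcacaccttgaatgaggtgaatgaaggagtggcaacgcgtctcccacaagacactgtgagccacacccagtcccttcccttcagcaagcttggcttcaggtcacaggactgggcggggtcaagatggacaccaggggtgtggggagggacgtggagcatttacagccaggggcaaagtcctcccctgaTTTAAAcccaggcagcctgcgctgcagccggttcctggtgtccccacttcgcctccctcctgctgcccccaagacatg

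On the log2 scale *ALPP* gave a signal of 10.08 in miR-184 cells and 13.85 in NC cells. The difference, miR-184 minus NC, was -3.76, which is 13.6 times lower. *ALPG* gave 9.99 in miR-184 cells and 13.82 in NC cells, a log2 difference of -3.83 (14.2 times lower). Both genes were far lower in miR-184 cells, yet their signals there still lay above 92.6% and 92.3% of all genes. In a bulk sample, fewer cells with a transcript and less of that transcript per cell cannot be told apart.

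*ALPI* gave a log2 signal of 3.75 in miR-184 cells and 4.28 in NC cells. Its log2 difference was -0.53 (1.45 times lower), just short of the 1.5 times (0.585 on the log2 scale) used here to call a gene lower or higher. *ALPL* gave 3.42 in miR-184 cells and 3.46 in NC cells, and differed by -0.04. Thus 2 of the 4 members were called lower and none higher, where 4.16% of 22368 genes were called lower and 3.74% higher. That count is fixed by the choice of the family, and nothing is read from it.

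**Figure D1:**
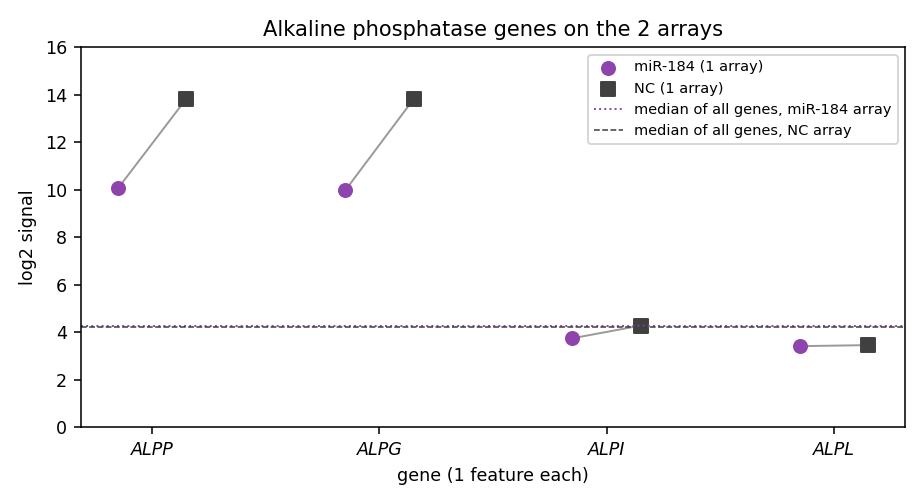
Log2 signal of the 4 alkaline phosphatase genes (vertical axis) in miR-184 cells (circles, left) and the NC array (squares, right), 1 array per condition and so no error bars, with the median of all genes in each array as horizontal lines. *ALPP* and *ALPG* sit near 10 in miR-184 cells and near 13.8 in NC cells, while *ALPI* and *ALPL* lie at or below the medians of 4.25 in miR-184 cells and 4.21 in NC cells, apart from *ALPI* in NC cells at 4.28.

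A feature's signal depends on its probes as well as on its transcript, so the levels of the 4 genes are not compared as amounts of RNA. Their place among all signals of an array can be given. *ALPP* was the gene of rank 1660 by signal in miR-184 cells and of rank 207 in NC cells, out of 22368. *ALPG* had rank 1718 in miR-184 cells and rank 213 in NC cells. Under 1% of genes were thus brighter than either in NC cells (0.921% for *ALPP* and 0.948% for *ALPG*), and 7.42% and 7.68% were brighter in miR-184 cells.

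The signal of *ALPL* was below the median of all genes on both arrays, and that of *ALPI* was below it in miR-184 cells and just above it in NC cells. Of the 22368 genes, 60.2% were brighter than *ALPI* in miR-184 cells and 49.1% in NC cells. For *ALPL* the shares were 73.6% in miR-184 cells and 68.1% in NC cells. For comparison, 9 measured markers of immune cells, such as the leukocyte antigen *PTPRC*, had a median log2 signal of 3.35 in miR-184 cells and 3.26 in NC cells. The deposited values carry no detection call, so whether either transcript was present at all is not known, and a small difference at such a level cannot be read as one of RNA.

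By the size of its fall *ALPG* had rank 3 and *ALPP* rank 4 of all 22368 genes. The amino acid transporter gene *SLC7A5* (-4.79) and the small nucleolar RNA *SNORD41* (-4.15) had larger falls, and the chemokine gene *CCL2* (-3.38) came next. Genes of similar signal, within 0.5 of the mean log2 signal of a member, give a closer frame. Around *ALPP* 353 genes had a median difference of -0.06, with 5% of them below -0.96. Of the 353, 3 fell further than *ALPP*, and *ALPG* was among these 3. Around *ALPG* 2 of 363 genes fell further. Both counts restate the values by which the family was chosen. Around *ALPI* 87 of 4634 genes (1.88%) had a lower difference, and 5% of them were below -0.32. *ALPI* was thus toward the lower edge of its signal range although it did not pass 1.5 times. Its signal was low, and whether its feature also detects transcripts of *ALPP* or *ALPG* was not tested. Around *ALPL* 2102 of 9014 genes (23.3%) had a lower difference, so that *ALPL* lay among the bulk of genes.

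**Figure D2:**
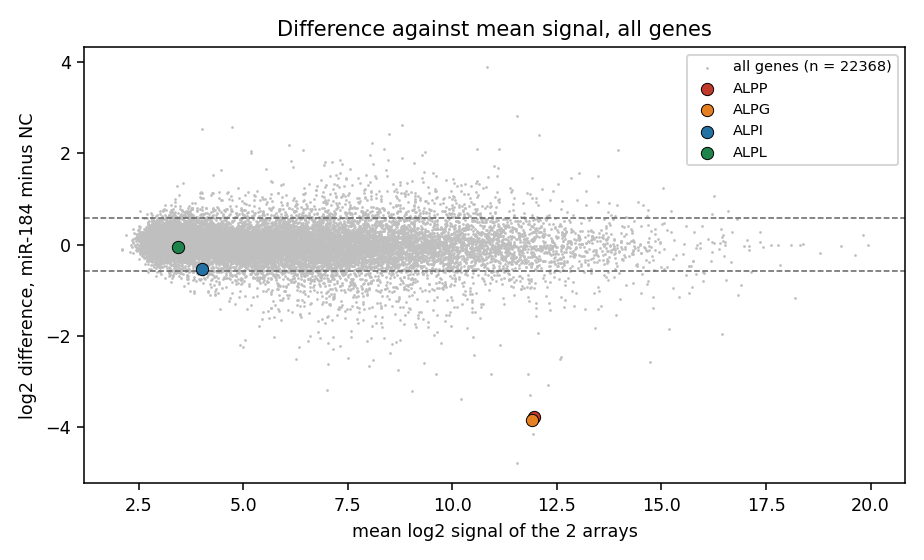
Log2 difference, miR-184 minus NC (vertical axis), against the mean log2 signal of the 2 arrays (horizontal axis) for 22368 genes (grey points), with the 4 alkaline phosphatase genes in colour and dashed lines at 1.5 times lower and higher. *ALPP* and *ALPG* lie together near -3.8, below nearly all genes of their signal, *ALPI* lies just inside the lower line at -0.53 and *ALPL* near 0.

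The features with signals most like those of *ALPP* are given as a description. Likeness was measured as the straight-line distance between 2 genes in the plane of the 2 log2 signals (miR-184 and NC). It rests on 2 arrays only, uses the values by which the family was chosen, and sets signals of different probes side by side, so it says nothing of amounts of RNA. *ALPG* was the nearest of all genes to *ALPP*, at a distance of 0.10, and *ALPP* the nearest to *ALPG*. Because probes may be shared between these paralogs, the 2 features cannot be counted as 2 separate measurements, and how much of either signal came from each transcript was not tested. No feature on the array listed a member beside another symbol.

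After *ALPG*, the genes nearest to *ALPP* were *SNORD41* (distance 0.27, 9.86 in miR-184 cells and 14.01 in NC cells) and *SNORD61* (0.37, 10.21 and 13.50). Next came *COX8A*, a subunit of cytochrome c oxidase (0.67), *RAB1B*, a Rab GTPase of the early secretory pathway (0.69), and *SLC7A5* (0.94). The genes nearest to *ALPL* were *CELF6*, *PIANP*, *POTEE*, *FAM9C* and *TRIM17*, at distances of 0.0013 to 0.0096. *ALPI* was at a distance of 0.89 from *ALPL* and of 11.5 from *ALPP*.

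Genes next to the members on the chromosome did not show the same size of difference. In RefSeq order the chromosome 2 cluster reads *ALPP*, *ALPG*, *ALPI*, with no other protein-coding gene between them. On the *ALPP* side the exonuclease gene *DIS3L2* read 5.41 in miR-184 cells and 5.45 in NC cells, and differed by -0.04. Beyond it *NPPC*, which encodes C-type natriuretic peptide, differed by -0.04, and *COPS7B*, a subunit of the COP9 signalosome, was lower by more than 1.5 times (6.27 in miR-184 cells and 7.05 in NC cells, -0.78). On the *ALPI* side the differences were 0.05 for the endopeptidase gene *ECEL1*, 0.03 for the serine protease gene *PRSS56* and 0.14 for *CHRND*, a subunit of the muscle acetylcholine receptor. Among the 9 genes of this stretch the large falls were seen at *ALPP* and *ALPG*. Several neighbours were below the median signal of all genes on both arrays. They were *NPPC* (4.08 in miR-184 cells and 4.11 in NC cells), *ECEL1* (3.37 and 3.32), *PRSS56* (3.68 and 3.65) and *CHRND* (3.69 and 3.56). Such signals leave little room for a fall of that size, so whether the falls were local was not tested.

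Around *ALPL* on chromosome 1, *ECE1*, which activates endothelin, differed by -0.26 and the ubiquitin protease gene *USP48* by -0.26. *RAP1GAP*, an inhibitor of the GTPase Rap1, was the same in both arrays at 3.67, and *LDLRAD2* differed by 0.18. *EIF4G3* and *NBPF3* had no feature with a single symbol and no value. None of the measured neighbours of *ALPL* passed 1.5 times, and *RAP1GAP* and *LDLRAD2* were below the median signal of all genes.

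**Figure D3:**
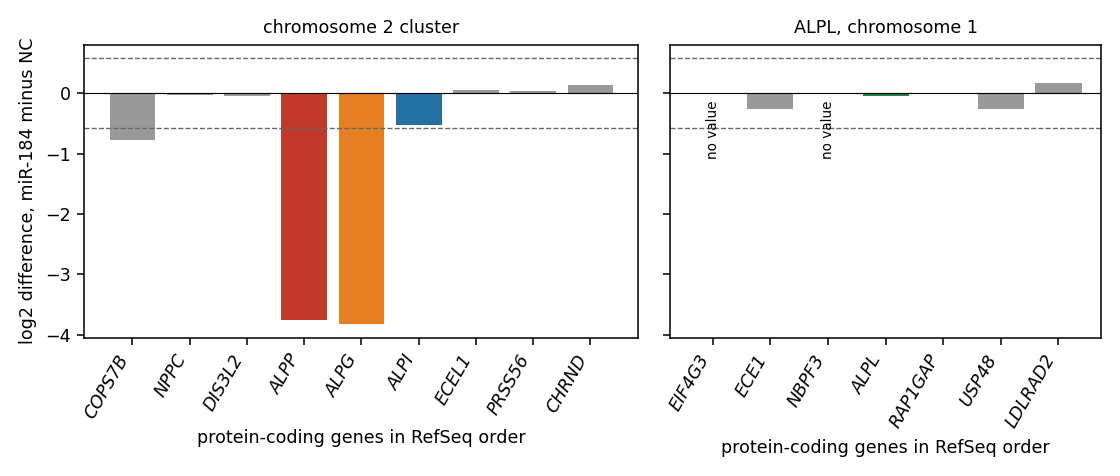
Log2 difference, miR-184 minus NC (vertical axis), for the chromosome 2 cluster and the 3 protein-coding genes on each side (left panel) and for *ALPL* and its neighbours (right panel), in RefSeq order and not to scale of distance, with dashed lines at 1.5 times. The bars of *ALPP* (-3.76) and *ALPG* (-3.83) stand apart from those of the genes around them, of which *COPS7B* (-0.78) had the largest difference. The neighbours *NPPC*, *ECEL1*, *PRSS56*, *CHRND*, *RAP1GAP* and *LDLRAD2* were below the median signal of all genes, which leaves little room for a large fall.

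The promoters of the chromosome 2 genes were similar in sequence, most of all those of *ALPP* and *ALPG*. In a global alignment 254 of 292 aligned bases (87.0%) were identical between *ALPP* and *ALPG*. Between *ALPP* and *ALPI* 185 of 266 (69.5%) were identical, and between *ALPG* and *ALPI* 189 of 267 (70.8%). The 3 windows that RefSeq gives for *ALPL* shared 54.4% to 56.9% of aligned bases with *ALPP*, and 44.1% to 52.0% with each other. The longest run common to *ALPP* and *ALPG* had 64 bases and lay 143 to 80 bases before the gene start in both.

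The longest run shared by the 3 promoters was ccctgaTTTAAAccc, with 15 bases, located at chr2:232378715-232378729 in *ALPP*, chr2:232406808-232406822 in *ALPG* and chr2:232456119-232456133 in *ALPI* (GRCh38.p14, plus strand). The motif TTTAAA within it began 30 bases before the start of *ALPP* and of *ALPG*, and 28 bases before that of *ALPI*. It was found, on both strands, in 12.2% of 35116 promoter windows of the same length in the RefSeq table, and in no window of *ALPL*. The GC box GGGCGG, also searched on both strands, occurred once in the window of *ALPG* and once in that of *ALPI*, with no match in that of *ALPP*, against 15786 of all 35116 windows. The motif TATAAA was in none of the 3 windows, against 11.5% of all windows, and 1 *ALPL* window held it. None of these motifs overlaps another in the cluster promoters. A match of letters is a description and says nothing about a factor, and target sites of miR-184 in the transcripts were not analysed here.

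**Figure D4:**
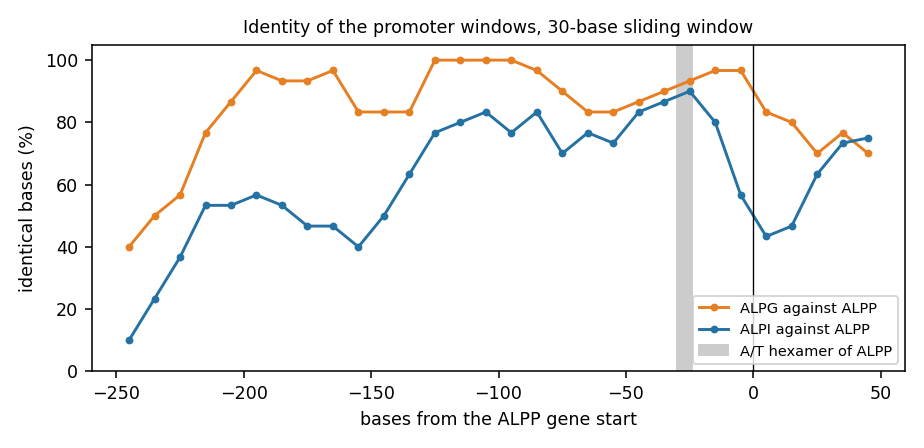
Percent of identical bases between the *ALPP* promoter window and those of *ALPG* and *ALPI* (vertical axis) in a sliding window of 30 bases, against the distance in bases from the *ALPP* gene start (horizontal axis, negative before the start), with the A/T hexamer of *ALPP* as a grey band. *ALPG* was identical to *ALPP* at every base of the windows centred from -125 to -95, and *ALPI* came closest to *ALPP* in the window centred at -25, at the hexamer.

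Genes with which alkaline phosphatases work were then described from 15 lists, with members of the family left out. A list is given by how many of its measured genes passed 1.5 times in each direction and by its median difference, beside a median of 0.04 over all genes and shares of 4.16% lower and 3.74% higher among them. Most lists are short, so that 1 gene moves a share by several percent, and nothing is called particular to a list. Because every alkaline phosphatase needs a GPI anchor, the genes of anchor assembly come first. Of 29 measured, 3 were lower and none higher (median -0.06). These were *PIGT* (11.24 in miR-184 cells and 12.18 in NC cells, -0.94) and *PIGS* (-0.65), which are subunits of the transamidase that attaches the anchor, and *DPM2* (-0.65), a subunit of the synthase of dolichol phosphate mannose. *GPAA1* (0.47) and *PIGK* (0.33), subunits of the same transamidase, had differences of the other sign that did not pass. A further subunit, *PIGU* (-0.32), was lower and did not pass.

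Other GPI-anchored surface proteins were found on both sides. Of 44 measured, 6 were lower and 4 higher (median 0.07). *NT5E*, the 5′-nucleotidase CD73 that also takes phosphate from extracellular AMP, was at 12.77 in miR-184 cells and 8.88 in NC cells (3.89, or 14.8 times higher). The antiviral protein tetherin, *BST2* (-1.98), and the complement regulator *CD55* (-1.03) were lower. *ALPP* and *ALPG* had larger falls than each of the 44, which follows from how the family was chosen, and nothing is read from it.

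The zinc of alkaline phosphatases is loaded in the secretory pathway by the transporters ZnT5 with ZnT6 and by ZnT7. *SLC30A7*, which encodes ZnT7, was lower (9.92 in miR-184 cells and 11.00 in NC cells, -1.08, or 2.12 times), whereas *SLC30A5* (-0.13) and *SLC30A6* (0.16) did not pass. It was the only 1 of 16 genes of zinc supply past 1.5 times (median -0.06), a list that includes the metallothioneins *MT2A* (-0.11) and *MT1X* (0.34). The 6 acid phosphatases measured, enzymes that remove phosphate at low pH, had none past 1.5 times (median -0.12), with *ACP1* (-0.46) and *ACP2* (-0.45) lowest.

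Genes that make, move or use the substrates of alkaline phosphatases mostly stayed within 1.5 times. At or above the median signal of all genes were 8 of 14 for phosphate and pyrophosphate, 5 of 11 for nucleotide hydrolysis and 4 of 5 for vitamin B6. A fall could hardly show in the others. Of 14 genes of phosphate and pyrophosphate handling 1 was lower and 1 higher (median 0.10). *ENPP1*, which makes pyrophosphate from ATP, was at 6.83 in miR-184 cells and 7.48 in NC cells (-0.65), and the phosphate exporter *XPR1* was at 9.20 and 8.23 (0.97). Of 11 genes of extracellular nucleotide hydrolysis 2 were lower, *ADA* (-0.89), which deaminates adenosine, and *ENPP1*, and 1 was higher, *NT5E* (median -0.05). None of 5 measured genes of vitamin B6 handling passed (median 0.21).

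Markers of the tissues for which the members are named were then examined, of which 9 of 21 for trophoblast, 1 of 13 for germ cells, 1 of 16 for enterocytes and 8 of 18 for bone were at or above the median signal of all genes. Of 21 measured markers of placental trophoblast 4 were lower and none higher, with a median of 0.08. They were *HSD3B1*, a steroid dehydrogenase (7.09 in miR-184 cells and 8.48 in NC cells, -1.39), the transcription factors *TFAP2A* (-0.94) and *GATA3* (-0.83), and *HLA-G* (-0.77), which was named after its value was seen and did not pass when all features of the gene were averaged (-0.55), leaving 3. The levels of the 21 ran from 3.03 to 9.30 in miR-184 cells and from 2.92 to 10.24 in NC cells. Genes of trophoblast lay on both sides of the median signal. Below it were *CGA*, the alpha subunit of chorionic gonadotropin (3.34 in miR-184 cells and 3.10 in NC cells), and the syncytin gene *ERVFRD-1* (3.43 in miR-184 cells and 3.56 in NC cells). Above it, beside *HSD3B1*, were the pregnancy-specific glycoprotein genes *PSG5* (7.52 in miR-184 cells and 7.65 in NC cells), *PSG1* (5.69 and 6.00) and *PSG3* (5.16 and 4.88), which are near-identical paralogs. *TFAP2A* and *GATA3* are also expressed in many epithelia, and the part of these genes in the falls of *ALPP* and *ALPG* was not tested.

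Of 13 markers of germ cells and pluripotency 1 was lower, *PRDM1* (5.45 in miR-184 cells and 6.91 in NC cells, -1.46), a transcriptional repressor that epithelia also express (median 0.11). *POU5F1* was at 3.90 in miR-184 cells and 3.81 in NC cells. None of 16 markers of enterocytes passed (median 0.10), and apart from *ANPEP* (12.93 in miR-184 cells and 12.41 in NC cells) they were below the median signal. *ANPEP* (0.52) passed upward with quantile normalization (0.61). None of 18 genes of osteoblasts and mineralization passed (median -0.03), and the bone matrix gene *IBSP* was at 3.50 in miR-184 cells and 3.37 in NC cells. The transcription factor gene *MSX2* (-0.57) was just inside and came out lower with centring (-0.62), quantile normalization (-0.59) and loess (-0.59).

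In the lists of ocular and other cells, 2 of 22 markers of corneal and stratified epithelium were lower and 5 higher (median 0.05). The keratin gene *KRT19* (-0.92) and the transcription factor gene *KLF5* (-0.71) were the 2 lower. The integrins *ITGA6* (1.39) and *ITGB4* (1.03) and the mucin *MUC16* (0.98) were highest. Of 14 markers of stroma and fibroblasts 1 was higher, the collagen gene *COL5A1* (0.70, median 0.05), and of 9 markers of corneal endothelium 1, the cadherin gene *CDH2* (1.30, median 0.16). None of the 9 immune markers passed (median 0.06). At or above the median signal of all genes were 12 of 22 markers of epithelium and 1 of 14 of stroma and fibroblasts. For endothelium and immune cells these were 5 of 9 and 2 of 9. A fall could hardly show in the others.

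**Figure D5:**
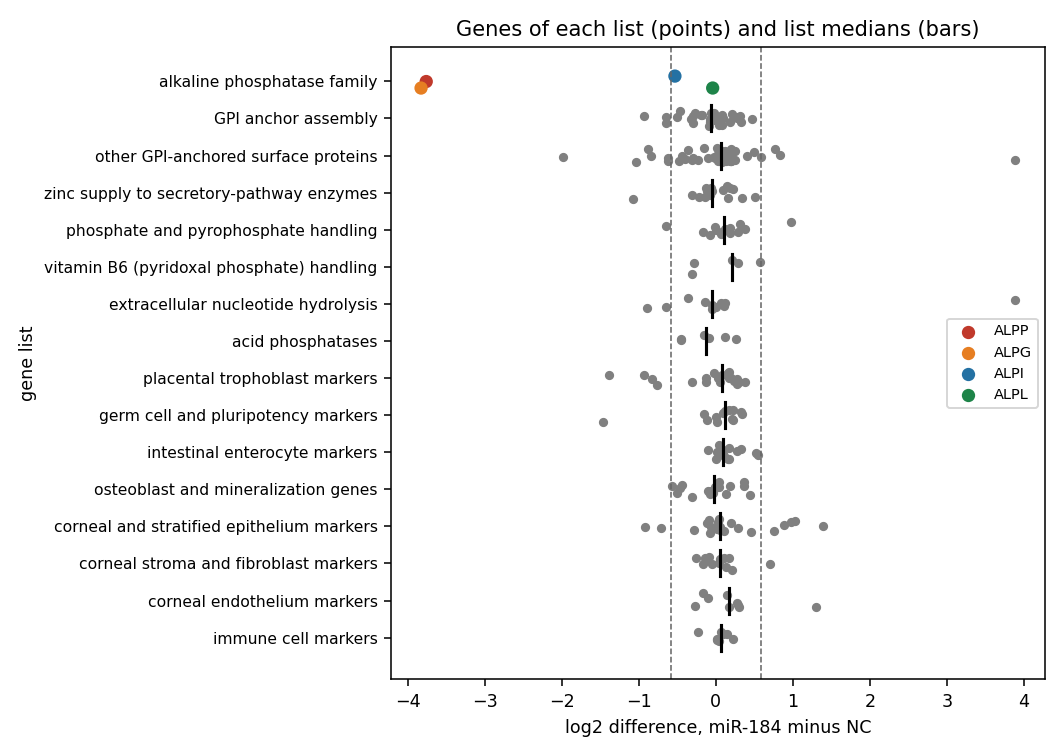
Log2 difference, miR-184 minus NC (horizontal axis), for the genes of each list (grey points, 1 row per list, black bar at the list median) below the 4 alkaline phosphatase genes (coloured points), with dashed lines at 1.5 times lower and higher. *ALPP* and *ALPG* lie to the left of every gene in the 15 lists, which follows from how the family was chosen. *NT5E* (3.89), which stands in 2 lists, lies furthest to the right.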

How the data were processed

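Total RNA of HCECs was profiled with 1 array for miR-184 and 1 for NC. According to the methods, the authors used the Affymetrix Human Transcriptome Array 2.0 with default settings of Command Console, and Expression Console for normalization. Deposited values are log2 signals, 1 for each feature. The sample labels describe Agilent labelling and the submitters' notes name Agilent Feature Extraction 9.1, but the identifiers belong to the Affymetrix array. No genome build of its annotation was given, and printed coordinates come from the RefSeq tables (GRCh38.p14).

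Of 65854 features, 23730 carried a single symbol in the platform's annotation. These were 22368 genes after 303 features were updated to current RefSeq symbols. Another 1539 carried several symbols and 40585 were not listed. The brightest feature stood for a gene with several. Differences are miR-184 minus NC, with no filter, and genes were called at 1.5 times. With 1 array per condition there is no test and no interval, and the number of arrays limits the precision. Values were taken for all genes. Only those of the members, listed genes, nearest genes, chromosome neighbours and *CCL2* are given.

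The members, the 15 lists and the rule for named genes were chosen with earlier results of these data known. Named genes are the 4 members, up to 3 genes past 1.5 times with the largest differences in each list, the 5 genes nearest to *ALPP* and to *ALPL*, and the 3 protein-coding neighbours on each side. *CCL2* was named for its rank among the falls. Other genes serve as examples of a list and were chosen after their values were seen. Promoters were aligned globally with Biopython 1.88 (match 2, mismatch -1, gap opening -5, gap extension -1, end gaps -0.5). The alternatives were centring, quantile normalization, subtraction of a loess curve on signal (span 0.3), averaging over a gene's features, features with several symbols, a threshold of 2 times, and leaving out genes dimmer than the median. Of the steps, only centring, loess subtraction and quantile normalization were tested on simulated data. Python 3.11.15 was used with numpy 2.4.6, pandas 2.3.3 and statsmodels 0.14.6.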

Additional observations from a re-analysis of the deposited data

How the results depend on the processing

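Under 5 alternatives each, the difference of *ALPP*, miR-184 minus NC, ran from -3.80 to -3.69 and that of *ALPG* from -3.87 to -3.74, so both stayed at least 12.9 times lower. *ALPL* ran from -0.11 to -0.04 and stayed within 1.5 times. *ALPI* ran from -0.59 to -0.53 and passed 1.5 times in 1 of the alternatives (-0.59), the one that subtracts a loess curve of the difference on signal; the cause was not tested. Each member had 1 feature and none was on a feature with several symbols, so the mean of features and the added features changed no value of a member. With calls made at 2 times, 303 genes came out lower and 220 higher, against 930 and 836 at 1.5 times. Over the 240 measured genes of the 15 lists 5 were lower and 4 higher at 2 times, against 19 and 12 at 1.5 times. Of the counts of single lists in each direction, 14 were above 0, and 10 of these 14 moved by over 1.5 times with calls at 2 times, while none did under the scaling, feature and signal alternatives. The other 16 counts were 0, which a stricter threshold or fewer genes cannot raise, and 4 of 64 comparisons under the scaling and feature alternatives gave 1 gene in place of none (*MSX2* and *ANPEP*). *CD14* and *CD24* also lost their calls under at least 1 scaling. No paired analysis was possible because each condition has 1 array. With 1 array each, no replicate could be left out either. Features near or below the median signal, those of *ALPI* and *ALPL* among them, have no detection call, and how far they rise above background is not known.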
